A study of Sus scrofa with 2 samples.

Results

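The genes described are the 5 fibrillar collagen chains COL1A1, COL1A2, COL3A1, COL5A1 and COL5A2, taken by symbol from the gene lists of both libraries, in which they are 5 of 31908 genes. They were followed through fibroblasts and their subsets, mural cells (smooth muscle cells and pericytes) and the other cell classes of pig skin. The cells came from full-thickness punches of dorsal skin of healthy young male farm pigs, dissociated with an enzyme kit in a tissue dissociator and sorted by FACS, in which ethidium homodimer-1 marked dead cells and the scatter gates served against doublets. There was 1 droplet scRNA-seq library (10x Genomics, 3′ ends) of fresh cells and 1 of cryopreserved cells, which had been frozen in 10% DMSO with 90% FBS, kept in liquid N2 and thawed. No transgene or drug was involved, no age in weeks or months is given, and whether 1 animal gave both libraries is not stated in the sources used here. The extraction protocol in the labels describes freezing for both samples, while titles and treatment labels mark 1 of them as fresh.

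Fibrillar collagens are the rope-like proteins that give the dermis its tensile strength. Each molecule is a triple helix whose chains carry glycine at a regular spacing, and type I collagen is built from the COL1A1 and COL1A2 chains, type III from COL3A1 alone and the less abundant type V from COL5A1 and COL5A2. Type V helps to start fibrils and to limit their width, and type III mixes with type I in the fibrils of elastic and young tissue. Chains are hydroxylated and folded in the endoplasmic reticulum, secreted as procollagen, trimmed at their ends and crosslinked outside the cell. In skin, fibroblasts are the known main source.

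The repeat can be read in the gene sequences, which are given here to show what the 5 chains have in common. The UMIs below were counted against the Ensembl annotation, not against these RefSeq models. Positions and sequences are those of RefSeq on Sscrofa11.1, the build of the deposited matrices, and all 5 symbols matched a RefSeq gene. For each gene the first coding exon of 54 bases that lies inside the longest glycine repeat is shown on the coding strand, with the glycine codons of the repeat in capitals.
COL1A1, coding exon 8, chr12:26393098-26393151, minus strand: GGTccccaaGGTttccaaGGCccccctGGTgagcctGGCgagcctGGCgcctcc
COL1A2, coding exon 8, chr9:74184187-74184240, plus strand: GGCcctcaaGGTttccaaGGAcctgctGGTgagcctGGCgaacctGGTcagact
COL3A1, coding exon 6, chr15:93571887-93571940, plus strand: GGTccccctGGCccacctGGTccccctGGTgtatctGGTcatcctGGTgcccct
COL5A1, coding exon 24, chr1:274026012-274026065, plus strand: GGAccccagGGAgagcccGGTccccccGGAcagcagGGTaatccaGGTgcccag
COL5A2, coding exon 10, chr15:93664931-93664984, minus strand: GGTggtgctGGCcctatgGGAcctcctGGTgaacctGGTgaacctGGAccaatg
Each of these exons holds 6 glycine codons of the repeat, 1 in every 3 codons. The exon of COL5A2 has a further glycine codon outside this spacing, the lower-case ggt after its first codon. Exons of exactly 54 bases made up 42.9% of the internal coding exons of COL1A1, 47.1% of those of COL1A2, 49.0% in COL3A1, 41.8% in COL5A1 and 46.2% in COL5A2, against 0.731% of the 156805 internal coding exons of all protein-coding genes. In the chosen transcript models the longest unbroken run of glycine codons at this spacing was 338 triplets in COL1A1, 339 in COL1A2, 343 in COL3A1, 339 in COL5A2 and 178 in COL5A1. The run took 29.1% of the coding length in the COL5A1 model and 67.8% to 74.5% in the others. Whether this model breaks a longer repeat was not examined, so that 178 is not a length of the helix. The chains also differed in the codon they use for the glycine of these runs, with GGT at 54.3% of the run in COL1A2 and 20.2% of the shorter run in COL5A1.

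The genes lie on 4 chromosomes. COL1A1 spans chr12:26379087-26397180 on the minus strand, COL1A2 spans chr9:74174484-74210407 on the plus strand and COL5A1 spans chr1:273934219-274083264 on the plus strand. COL3A1 (chr15:93556914-93595678, plus strand) and COL5A2 (chr15:93611856-93981131, minus strand) are neighbours that face each other tail to tail. The 220 bases before the annotated transcript start are shown for COL1A2, a type I chain with a single RefSeq transcript model, 5′ to 3′ on the strand of the gene. Capitals mark CCAAT on either strand (ATTGG where it lies on the other strand) and TATAAA on the strand shown, motifs that were chosen after the sequence had been looked at and that do not overlap here.
COL1A2, chr9:74174264-74174483, plus strand: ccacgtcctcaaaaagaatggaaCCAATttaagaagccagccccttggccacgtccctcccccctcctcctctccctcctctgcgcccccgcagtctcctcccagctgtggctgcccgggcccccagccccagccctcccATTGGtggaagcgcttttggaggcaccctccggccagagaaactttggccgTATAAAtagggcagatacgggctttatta
The window held 2 CCAAT motifs and TATAAA, the latter 29 bases before the start. Among windows of the same length before 19559 protein-coding genes, 29% held CCAAT and 5.27% held TATAAA. Such matches are a description of letters and not of binding sites.

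Counts of unique molecular identifiers (UMIs, 1 per captured transcript) were summed over the cells of a class and given as CPM, the UMIs of a gene per 1000000 UMIs of that class. For CPM given by library, the totals were scaled between the 2 libraries of a class with edgeR TMM factors. Summed markers, levels over both libraries, ratios over T or NK-like cells and the comparison of collagen-rich with other clusters use plain totals. A 3′ UMI count does not grow with transcript length, so that CPM values of different genes are set side by side without a length correction, though capture of each transcript end was not measured. The matrices hold 4379 fresh and 4860 cryopreserved barcodes with 53271738 and 42217632 UMIs, and 6 barcode sequences occur in both. After the study's maxima on genes, UMIs and mitochondrial share, 2775 fresh and 4223 cryopreserved cells remained, with medians of 11017 and 7945 UMIs per cell. With 1 library a condition there is no spread between samples to test against, and the differences below describe these 2 libraries alone, without a test. All intervals are 95% intervals that cover counting error only, and values given as a pair are fresh and cryopreserved in turn.

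The 5 genes held 5.47% of all UMIs of the filtered fresh cells and 5.596% of those of the cryopreserved cells. Nearly all of this came from fibroblast-like cells. This class was formed by clustering without collagen genes and named by 8 markers (PDGFRA, DCN, LUM, DPT, MFAP5, FBLN1, SFRP2 and APOD), which together reached 9682 and 9217 CPM in it with none of the 8 at 0. DCN and LUM made up most of this sum. Not all 8 were raised in each of its clusters, which are described below. Clusters 1, 5 and 18 had 3 of 8 raised, clusters 0 and 4 had 4, and cluster 7 had 7. The 1195 fresh and 1552 cryopreserved fibroblast-like cells were 43.1% and 36.8% of the cells and held 98.5% and 98.4% of the members' UMIs. Within the class, 11.2% (interval 11.18 to 11.21%) of fresh and 12.4% (12.43 to 12.46%) of cryopreserved UMIs fell on the 5 genes.

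COL1A1 was the most abundant chain of fibroblast-like cells, at 46209 CPM in fresh and 56770 CPM in cryopreserved cells. Its partner in type I collagen, COL1A2, reached 34547 and 37528 CPM. The type III chain COL3A1 followed with 26563 and 29892 CPM. The type V chains were more than an order of magnitude lower. COL5A1, the chain that most type V molecules carry in the larger number, had 1261 and 1619 CPM, and COL5A2 had 1125 and 1179 CPM. The order of the 5 genes was the same in both libraries, and no neighbouring pair overlapped in its counting interval. As shares of the members' UMIs, COL1A1 made up 42.1% and 44.7%, COL1A2 31.5% and 29.6%, COL3A1 24.2% and 23.5%, COL5A1 1.15% and 1.27%, and COL5A2 1.03% and 0.928%.

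**Figure D1:**
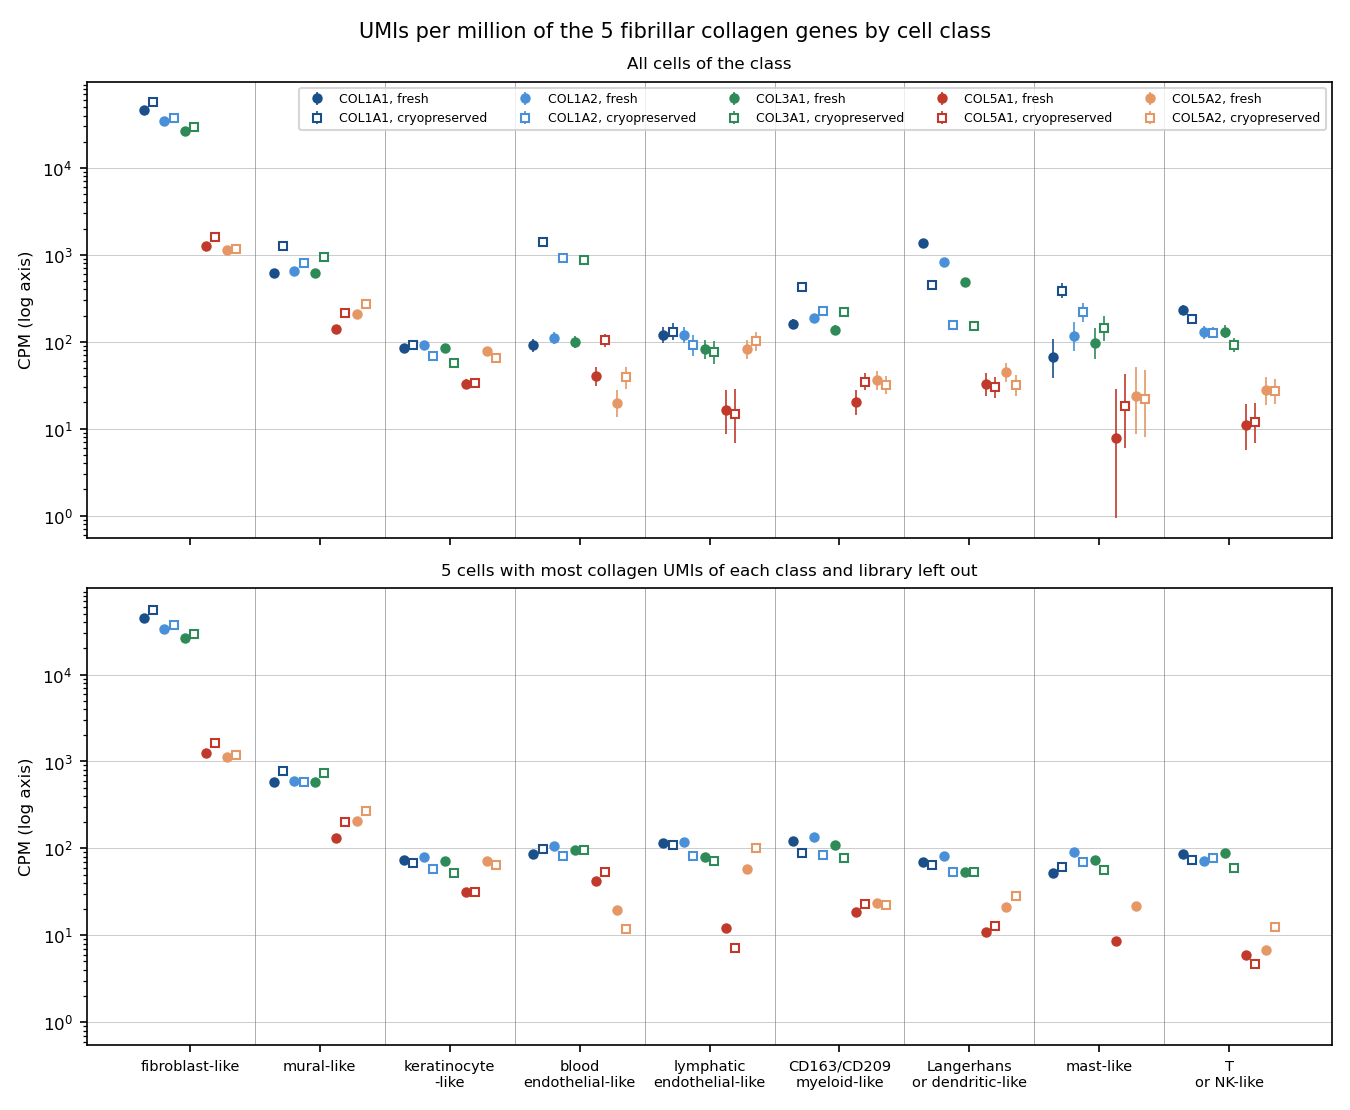
CPM (log axis) of the 5 genes in 9 cell classes, filled circles fresh and open squares cryopreserved, with bars for 95% counting intervals in the upper panel; the lower panel leaves out the 5 cells with most member UMIs of each class and library. Fibroblast-like cells stand above every other class in both panels. Mural-like cells come next in the lower panel, whereas the high cryopreserved values of blood endothelial-like cells (COL1A1 at 1399 CPM) and the high fresh values of Langerhans or dendritic-like cells (1370 CPM) exceed the COL1A1 of mural-like cells (626 and 1250 CPM) in the upper panel alone.

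Single fibroblast-like cells differed widely in how much of their RNA was fibrillar collagen. The median cell gave 5.53% of its UMIs to the 5 genes among fresh and 7.06% among cryopreserved cells. The 10th percentile was 0.597% and 1.52%, the 90th was 22.0% and 25.4%, and the highest cell reached 53.0% and 42.4%. More than 10% of the UMIs were collagen in 368 fresh (30.8%) and 586 cryopreserved cells (37.8%), and the 10% of cells with most held 44.6% and 39.9% of the members' UMIs of the class. Cells with more UMIs had a higher collagen share (Spearman's rho over cells 0.609 and 0.453, and 0.289 to 0.684 within single clusters and libraries), which is a description, since both measures come from the same counts.

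The chains went together from cell to cell. Over fibroblast-like cells, Spearman's rho of the shares of COL1A1 and COL1A2 was 0.924 and 0.929, and that of COL1A2 and COL3A1 was 0.948 and 0.935. For the rarer pair COL5A1 and COL5A2 it was 0.526 and 0.480. Within single clusters rho of the type I pair ranged from 0.833 to 0.946. These values are taken over cells of 1 library that share its depth, and the lower ones belong to genes with few UMIs per cell.

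Thinned to 1000 UMIs per cell, so that depth was equal, COL1A1 was seen in 94.96% and 99.5% of fibroblast-like cells, COL1A2 in 93.0% and 96.2% and COL3A1 in 90.2% and 96.0%. COL5A1 was seen in 62.9% and 71.4%, and COL5A2 in 56.8% and 56.97%. Thinning left out 5 fresh and 9 cryopreserved cells, and at full depth, with medians of 12659 and 9967 UMIs per cell, COL1A1 was seen in 99.0% and 100% of cells and COL5A2 in 93.3% and 94.0%. T or NK-like cells served as a class that should lack these genes. There COL1A1 was seen in 9.66% and 9.88% of thinned cells and COL5A1 in 0% and 1.19%. The former is 0 of 145 cells, which by the exact binomial interval allows up to 2.51% of cells thinned to this depth to hold a COL5A1 UMI, and at full depth 4.83% and 2.77% of these cells held one. Full-depth T or NK-like cells had medians of 6512 and 4820 UMIs, and 45.5% and 31.6% of them held a COL1A1 UMI, and shares near these are read as background.

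Clustering without collagen and collagen pathway genes split the fibroblast-like cells into 6 clusters, named here by number and leading genes. By the summed share of the 5 genes, clusters 1 and 4 were rich in fibrillar collagen and the other 4 were not. In cluster 1, led by MYL10, MOXD1 and the Wnt inhibitor WIF1, the 5 genes took 17.8% of 310 fresh cells' UMIs and 20.6% of 335 cryopreserved cells' UMIs. In cluster 4, led by KCND2, KLHL32 and DHRS3, they took 16.4% and 21.0%. Cluster 18, with the integrin chain ITGA8 and the cartilage proteoglycan ACAN, gave 7.39% and 8.40%, and cluster 7, with SEMA3G and CCN3, gave 7.37% and 7.64%. The lowest shares were those of cluster 5, led by the chemokine CCL19 (5.29% and 5.66%), and of cluster 0, with MYOC, FCN2 and FABP4 (3.66% and 4.29%). Clusters 1 and 4 held 46.5% and 29.4% of the class's fibrillar collagen UMIs in the fresh library and 35.0% and 37.9% in the cryopreserved library, with 25.9% and 15.7% of its fresh cells and 21.6% and 16.6% of its cryopreserved cells. The median cell was far apart between these clusters too, at 12.5% and 18.1% in cluster 1 and 2.36% and 3.30% in cluster 0. By the median cell, cluster 18 (4.49% and 7.63%) stood below cluster 7 (6.51% and 6.67%) in the fresh library and above it in the cryopreserved library. Depth differed too, since the median fresh cell had 13926 UMIs in cluster 1, 10512 in cluster 0 and 17003 in cluster 7, and its part in the result was not tested.

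The 5 chains did not scale alike over the clusters. COL1A1 spanned 13974 CPM in cluster 0 to 73326 CPM in cluster 1 of the fresh library and 16923 CPM in cluster 0 to 99849 CPM in cluster 4 of the cryopreserved library, a highest over lowest ratio of 5.25 and 5.90. For COL1A2 the ratio was 6.01 and 6.14. COL3A1 spread less, with 3.85 and 3.35. The type V genes spread least, COL5A1 with 1.84 and 2.10 and COL5A2 with 2.10 and 2.46. Fresh COL5A1 was level in cluster 7 (1428 CPM) and cluster 1 (1422 CPM). In the cryopreserved library it stood at 1534 CPM in cluster 7 and 2008 CPM in cluster 1. COL1A1 and COL1A2 kept the larger span under all alternative processings, with 4.69 to 7.10 and 4.47 to 7.397 against 1.94 to 2.31 for COL5A1 and 2.25 to 2.64 for COL5A2 over both libraries together. Cluster 0 held 0.0645 and 0.0609 COL5A1 UMIs per COL1A1 UMI, and cluster 1 held 0.0194 and 0.0204.

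The type III chain was not ordered like type I. In cluster 7, COL3A1 reached 22687 and 24129 CPM while COL1A1 stood at 26065 and 29038 CPM, a ratio of 0.870 and 0.831 UMIs of COL3A1 per UMI of COL1A1. Cluster 0 was close to it with 0.783 and 0.831. Cluster 18 had more COL1A1 than cluster 7 (31327 and 39284 CPM) but less COL3A1 (14093 and 17724 CPM), and its ratio was 0.450 and 0.451. The collagen-rich clusters were also low in this ratio, with 0.574 and 0.478 in cluster 1 and 0.449 and 0.430 in cluster 4. The order of cluster 18 below cluster 7 held in both libraries by more than the counting intervals. These intervals do not cover the spread between cells. In cluster 18, 5 cells held 33.3% and 20.8% of the collagen UMIs, against 12.2% and 5.82% in cluster 7.

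**Figure D2:**
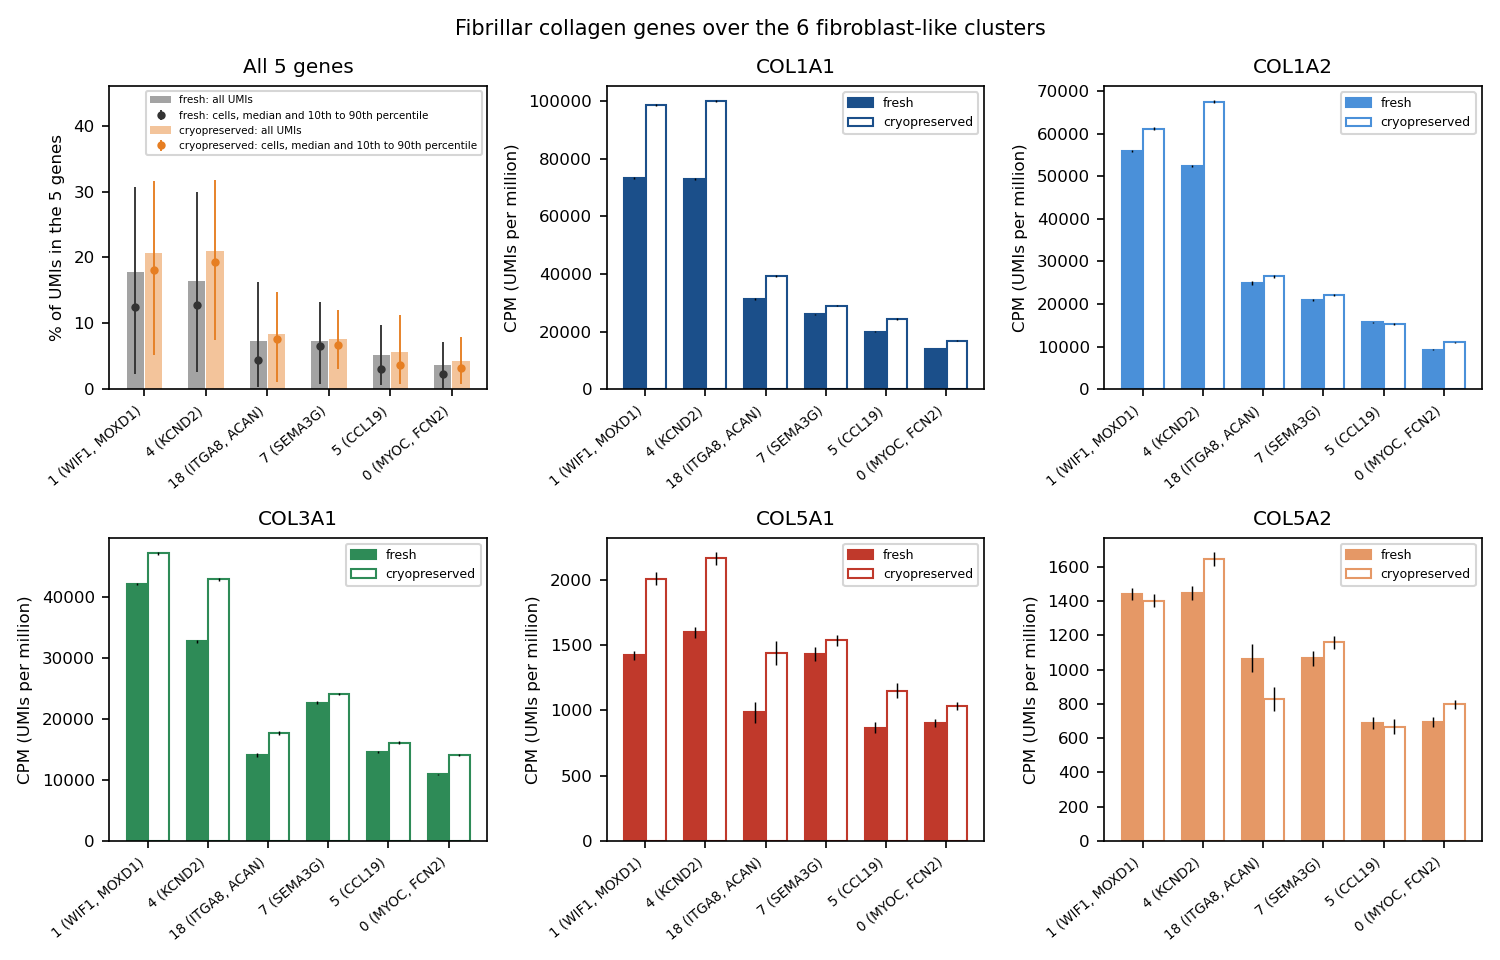
The 6 fibroblast-like clusters, ordered by collagen share: the first panel gives the percent of UMIs in the 5 genes (bars, all UMIs of the cluster; points and lines, median and 10th to 90th percentile over cells), and the others give the CPM of each gene for the fresh (filled) and cryopreserved (open) library with 95% counting intervals. Clusters 1 and 4 reach 16.4 to 21.0% and the other clusters 3.66 to 8.40%, and the bars of COL5A1 and COL5A2 differ less between clusters than those of COL1A1 and COL1A2.

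Mural-like cells were far below and had the highest share of the other classes by the median cell and by the sum without the 5 highest cells. By the plain sum, fresh Langerhans or dendritic-like cells (0.277%) stood above fresh mural-like cells (0.227%), and cryopreserved blood endothelial-like cells (0.334%) were level with cryopreserved mural-like cells (0.343%). Mural-like cells were named by 8 markers (RGS5, ACTA2, MYH11, TAGLN, CNN1, NOTCH3, DES and MCAM), which summed to 11498 and 11230 CPM in them and to 63.0 and 88.4 CPM in fibroblast-like cells. The 5 genes took 0.227% (interval 0.220 to 0.234%) of the UMIs of 246 fresh and 0.343% (0.335 to 0.351%) of those of 373 cryopreserved cells, and the median cell had 0.177% and 0.199%. COL1A1 was at 626 and 1250 CPM, COL1A2 at 651 and 796 CPM and COL3A1 at 618 and 934 CPM. The type V chains were less far behind than in fibroblast-like cells, with COL5A1 at 139 and 214 CPM and COL5A2 at 210 and 274 CPM. Against T or NK-like cells, mural-like cells held 12.4 (interval 7.004 to 24.4) and 17.9 (10.9 to 31.7) times the COL5A1 and 7.54 (5.20 to 11.3) and 10.2 (7.27 to 14.7) times the COL5A2. In T or NK-like cells, however, 5 cells held 53.9% and 50.4% of the members' UMIs, and with the 5 highest cells of both classes left out these ratios were 22.1 (10.0 to 60.9) and 42.9 (19.5 to 118) for COL5A1 and 29.7 (14.3 to 74.4) and 21.6 (13.2 to 38.1) for COL5A2. T or NK-like cells then held 6 UMIs of COL5A1 in each library and 7 and 16 UMIs of COL5A2. The 8 fibroblast markers summed to 55.1 and 146 CPM in mural-like cells, with DCN at 12.8 and 47.6 CPM, LUM at 30.3 and 59.6 CPM, and 0 and 1 of the 8 at 0. Some cells stood out, since 28.1% of the cryopreserved collagen UMIs lay in 5 cells, 1 of them with 10.6% collagen. Without the 5 cells highest in each library, the class still gave 0.211% and 0.254%.

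The 2 mural clusters differed in every chain. Cluster 8, led by GPM6B, ADGRF5 and KCNQ3, had 0.298% and 0.443% of its UMIs in the 5 genes. Cluster 11, led by HSPB8, EEF1A2 and PRDM16, had 0.142% and 0.179%. Over both libraries, ACTA2, the smooth muscle actin, was at 1711 CPM in cluster 8 and 4213 CPM in cluster 11, and RGS5, a regulator of G protein signals, was at 2433 and 3559 CPM. COL3A1 stood at 909 and 1308 CPM in cluster 8 and at 265 and 326 CPM in cluster 11. COL5A1 showed a like gap, with 217 and 290 CPM against 44.2 and 90.7 CPM. COL1A2 and COL5A2 were closer, COL1A2 with 748 and 946 CPM against 535 and 551 CPM, and COL5A2 with 239 and 316 CPM against 176 and 206 CPM. The 5 highest cells held 14.9% and 31.6% of the collagen UMIs in cluster 8 and 12.1% and 29.0% in cluster 11.

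In the remaining 7 classes the summed share of the 5 genes was low once a handful of cells was set aside, while single chains differed between these classes. The collagen share was 0.0372% and 0.0315% in keratinocyte-like cells, 0.0361% and 0.334% in blood endothelial-like cells, 0.0418% and 0.0418% in lymphatic endothelial-like cells, and 0.0541% and 0.0432% in T or NK-like cells. In myeloid-like cells marked by CD163 and CD209 it was 0.0561% and 0.0908%, in Langerhans or dendritic-like cells 0.277% and 0.0809%, and in mast-like cells 0.0311% and 0.0797%. The high values rested on few cells. In blood endothelial-like cells, 90.3% of the cryopreserved collagen UMIs lay in 5 cells, and without the 5 highest cells of each library the share was 0.0351% and 0.0341%. In Langerhans or dendritic-like cells, 5 fresh cells held 91.9%, and the share without them was 0.0239% and 0.0210%. The summed fibroblast markers moved with these values, at 26.8 and 305 CPM in blood endothelial-like and 303 and 91.2 CPM in Langerhans or dendritic-like cells, and their part in the result was not tested. With the 5 highest cells left out, the 7 classes lay between 0.0190% and 0.0422%.

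The make-up of this low signal was not the same everywhere. Both type V chains took a larger part of it than in fibroblast-like cells in each of these classes and in both libraries. Some gaps were small, with COL5A1 at 1.18% (interval 0.869 to 1.57%) in fresh Langerhans or dendritic-like and 1.15% in fresh fibroblast-like cells. Without the 5 highest cells, cryopreserved mast-like cells held 0 UMIs of either chain. The part of COL5A2 was largest in keratinocyte-like and lymphatic endothelial-like cells. That of COL5A1 was largest in fresh blood endothelial-like and in cryopreserved keratinocyte-like cells. COL5A2 made up 21.2% and 20.6% of the members' UMIs in keratinocyte-like cells and 19.5% and 24.4% in lymphatic endothelial-like cells, against 1.03% and 0.928% in fibroblast-like and 5.22% and 6.15% in T or NK-like cells. The level of COL5A2 was 79.2 and 64.6 CPM in keratinocyte-like cells, 82.2 and 101 CPM in lymphatic endothelial-like cells, and 27.6 and 27.2 CPM in T or NK-like cells. By plain totals, keratinocyte-like cells held 2.80 (interval 1.94 to 4.19) and 2.44 (1.74 to 3.51) times the COL5A2 of T or NK-like cells. Lymphatic endothelial-like cells held 2.89 (1.85 to 4.61) and 3.83 (2.499 to 5.96) times. With the 5 highest cells of each class left out the ratios rose to 10.3 (4.94 to 25.6) and 5.19 (3.17 to 9.13) in keratinocyte-like and 8.29 (3.696 to 21.8) and 8.22 (4.65 to 15.3) in lymphatic endothelial-like cells. The T or NK-like level fell to 6.84 and 12.6 CPM by this removal, on 7 and 16 UMIs. The cells left out were picked by their own collagen UMIs. They were a larger part of the 145 fresh T or NK-like than of the 529 fresh keratinocyte-like cells, so that the rise is a description. COL5A2 was seen in 7.41% (5.33 to 10.0%) and 6.48% (5.07 to 8.15%) of thinned keratinocyte-like cells and in 4.14% (1.53 to 8.79%) and 1.98% (0.645 to 4.55%) of thinned T or NK-like cells. COL1A1 had 84.1 and 90.9 CPM in keratinocyte-like and 232 and 182 CPM in T or NK-like cells, but without the 5 highest cells these came to 73.2 and 68.5 CPM against 86.0 and 74.1 CPM, a ratio of 0.831 (0.662 to 1.05) and 0.947 (0.763 to 1.19). Per COL1A1 UMI there were 0.941 and 0.711 COL5A2 UMIs in keratinocyte-like cells, 0.119 and 0.149 in T or NK-like cells, and 0.0244 and 0.0208 in fibroblast-like cells.

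Among keratinocyte-like clusters, COL5A2 was highest in cluster 10, with the basal keratin KRT15 (138 and 134 CPM), and in cluster 9, with PTHLH (132 and 87.1 CPM). The intervals of these clusters overlapped in the fresh library (121 to 157 and 113 to 154 CPM) and were apart in the cryopreserved library. In cluster 10, 5 cells held 37.9% and 24.4% of the collagen UMIs, against 14.4% and 9.50% in cluster 9. COL5A2 was lowest in cluster 12, with KRT1 and KRT10, the keratins of differentiating layers (14.6 and 18.9 CPM). Cluster 2, with SERPINB2, had 57.1 and 38.1 CPM, and the dividing cluster 19 had 48.2 and 63.6 CPM. COL5A1 had another order, with 44.8 and 45.3 CPM in cluster 2, 37.9 and 52.2 CPM in cluster 10 and 28.2 and 17.1 CPM in cluster 9. The intervals of clusters 2 and 10 overlapped in both libraries. Cluster 12 was lowest for COL5A1 too, with 6.26 and 8.62 CPM. With the 5 highest cells of each library left out, keratinocyte-like cells kept 71.9 and 63.9 CPM of COL5A2 and lymphatic endothelial-like cells 58.4 and 101 CPM, and T or NK-like cells had 6.84 and 12.6 CPM. When every barcode was used without a filter, the COL5A2 part of the keratinocyte-like collagen UMIs, 20.9% over both libraries, dropped to 5.31%. COL5A1 made up 8.72% and 10.6% of the members' UMIs in keratinocyte-like cells, against 1.15% and 1.27% in fibroblast-like and 2.09% and 2.74% in T or NK-like cells. Its level was 32.5 and 33.3 CPM in keratinocyte-like and 40.2 and 104 CPM in blood endothelial-like cells, and without the 5 highest cells it was 31.6 and 31.7 CPM and 41.9 and 53.6 CPM, where T or NK-like cells had 5.86 and 4.73 CPM. The latter rest on 6 UMIs in each library. Over T or NK-like cells the ratio without these cells was 5.25 (2.38 to 14.5) and 6.88 (3.13 to 18.9) in keratinocyte-like and 6.97 (3.03 to 19.7) and 11.6 (5.05 to 32.8) in blood endothelial-like cells.

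**Figure D3:**
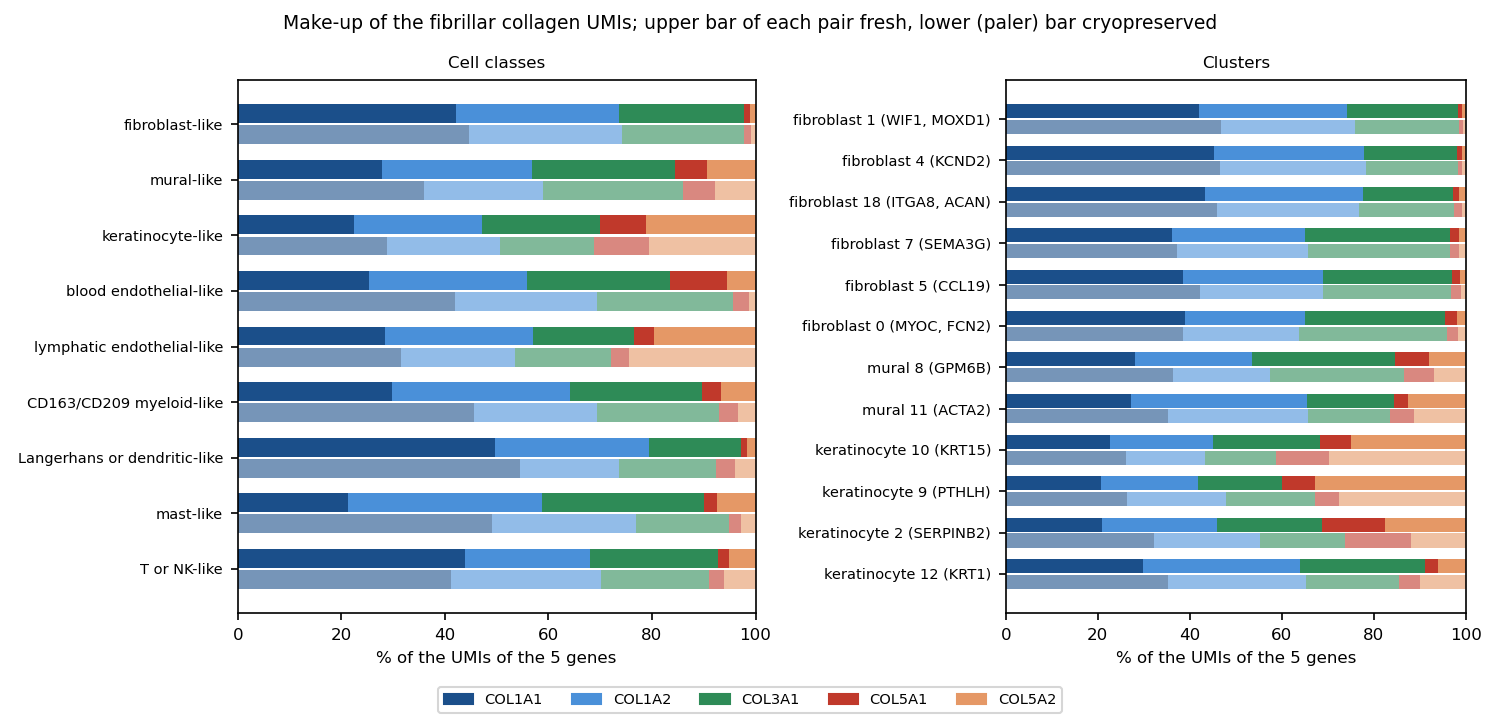
Percent of the UMIs of the 5 genes that belong to each chain, by cell class (left) and by cluster (right), upper bar fresh and lower, paler bar cryopreserved. COL1A1 takes 42.1% and 44.7% in fibroblast-like cells, while COL5A2 takes 21.2% and 20.6% in keratinocyte-like and 19.5% and 24.4% in lymphatic endothelial-like cells.

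The COL1A1 and COL1A2 chains assemble with each other, and their UMI ratio was followed through the classes. In fibroblast-like cells it was 1.34 and 1.51, and in mural-like cells 0.961 and 1.57. The fibroblast over mural ratio of these ratios was 1.39 (interval 1.29 to 1.51) in the fresh library and 0.964 (0.904 to 1.03) in the cryopreserved library, so that a difference between the classes was seen in the fresh library alone. Without the 5 highest cells it was 1.40 and 1.12, above 1 in both libraries. The 2 mural clusters were unlike. The COL1A1 to COL1A2 ratio was 1.11 and 1.72 in cluster 8, and 0.714 (0.619 to 0.823) and 1.15 (1.01 to 1.32) in cluster 11. Cluster 11 was below fibroblast-like cells in both libraries with intervals apart. Cluster 8 was below them in the fresh and above them in the cryopreserved library. Cryopreserved cells had the higher COL1A1 to COL1A2 ratio in 8 of 9 classes, with intervals apart in 7, and in 6 of 6 fibroblast-like clusters, with intervals apart in 5. T or NK-like cells were the exception, with 1.81 and 1.43 and overlapping intervals. COL3A1 per COL1A1 was lower after cryopreservation in 9 of 9 classes, with intervals apart in 6, and stood at 0.575 and 0.527 in fibroblast-like cells. Without the 5 highest cells it was not lower in Langerhans or dendritic-like cells, but still lower in each other class. Langerhans or dendritic-like cells then had 73 COL3A1 to 95 COL1A1 UMIs fresh and 92 to 110 cryopreserved. With all cells, COL3A1 per COL1A1 was lower in 4 of the 6 fibroblast-like clusters, with intervals apart in 4. It was higher in 2, with intervals apart in 1, which was cluster 0 (0.783 and 0.831). All classes and clusters come from the same 2 libraries, the 6 clusters are parts of 1 class, and both ratios hold COL1A1. These counts of classes and clusters are therefore a description and not separate observations. COL5A1 per COL5A2 was 1.12 and 1.37 in fibroblast-like and 0.660 and 0.782 in mural-like cells.

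Between the libraries, all 5 members were higher in cryopreserved than in fresh fibroblast-like cells, by little. On the log2 scale, cryopreserved over fresh, COL5A1 was higher by 0.36 (interval 0.33 to 0.39) and COL1A1 by 0.30 (0.29 to 0.30). COL3A1 differed by 0.17 (0.16 to 0.18), COL1A2 by 0.12 (0.11 to 0.12) and COL5A2 by 0.07 (0.04 to 0.10). None of the 5 reached a log2 ratio of 0.5, a size that 15% of the 8876 genes with at least 200 UMIs in this class reached in either direction (9.23% higher and 5.72% lower). The members' median was 0.17 beside a median of 0.03 over all these genes, whose 5th and 95th percentiles were -0.52 and 0.60, and the members stood between the 54.5th and the 81.7th percentile.

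The direction depended on the filter. With every barcode used, the log2 ratio of COL1A1 was -0.07, of COL1A2 -0.33, of COL3A1 -0.15 and of COL5A2 -0.13, so that 4 of 5 members turned, while COL5A1 stayed at 0.16. The fresh barcodes above the maxima on genes or UMIs had 9.35% of their UMIs in the 5 genes, and the filter had removed 600 such barcodes from the fresh and 191 from the cryopreserved library. Within clusters the ratios ranged more widely. In cluster 7 they ran from 0.08 to 0.16, and in cluster 4 from 0.19 to 0.45. Cluster 1 had 0.43 for COL1A1 and -0.04 for COL5A2, and cluster 18 had 0.55 for COL5A1 and -0.36 for COL5A2, so that the type V chains parted there. Cluster 18 held 64 and 79 cells, and 5 cells of each library held 33.3% and 20.8% of its collagen UMIs.

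In mural-like cells the log2 ratio was 0.998 (interval 0.90 to 1.10) for COL1A1, 0.63 (0.40 to 0.86) for COL5A1, 0.60 (0.49 to 0.70) for COL3A1, 0.38 (0.19 to 0.57) for COL5A2 and 0.29 (0.18 to 0.40) for COL1A2. Thus 3 of 5 members passed 0.5, against 9.05% of the 3415 genes measured in this class (5.65% higher). Without the 5 highest cells of each library, a choice made after seeing the data, COL1A1 came to 0.45, COL3A1 to 0.36 and COL1A2 to -0.06, while COL5A1 stayed at 0.62 and COL5A2 at 0.39. Only COL5A1 then remained past 0.5. The fibroblast markers in this class, 55.1 and 146 CPM, were higher in the same direction, and their part in the result was not tested.

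**Figure D4:**
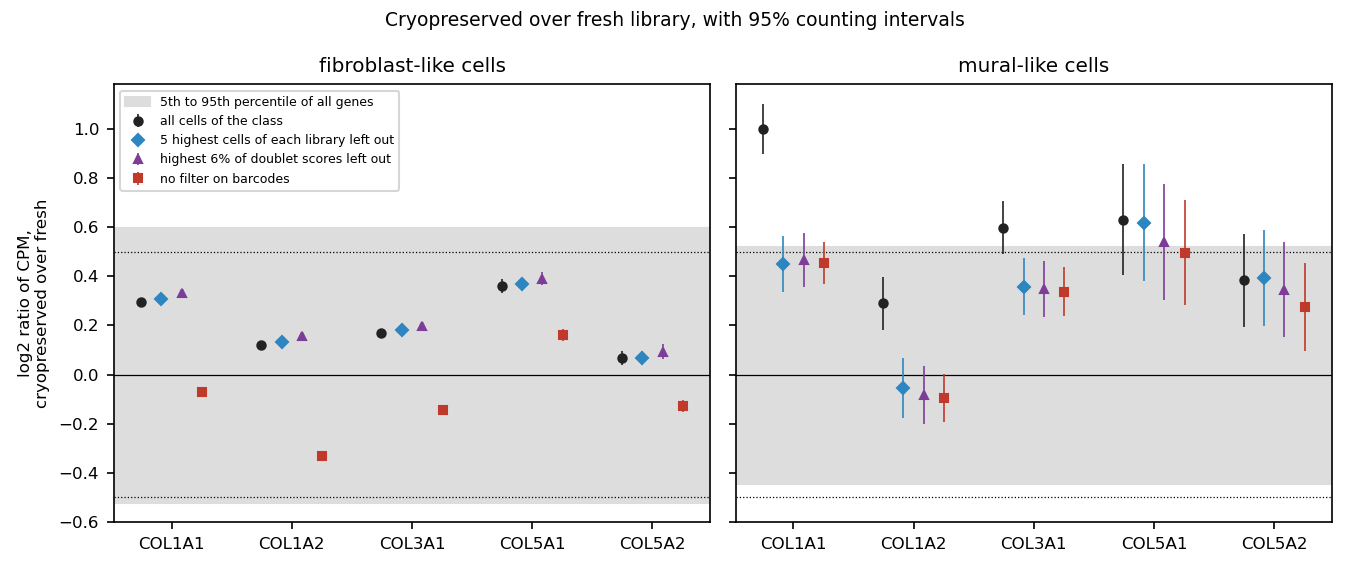
Log2 ratio of CPM, cryopreserved over fresh, of each gene in fibroblast-like (left) and mural-like cells (right), with 95% counting intervals; black circles are the values reported, blue diamonds leave out the 5 highest cells of each library, purple triangles the 6% of cells with the highest doublet scores, and red squares apply no filter to barcodes. Grey marks the 5th to 95th percentile of all genes and dotted lines a ratio of 0.5 in size; in fibroblast-like cells the unfiltered values of 4 genes lie below 0, and in mural-like cells COL1A1 drops from 0.998 to 0.45 without the 5 highest cells.

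In keratinocyte-like cells COL3A1 was lower in the cryopreserved library by 0.58 on the log2 scale, the single member past 0.5 there, where 8.71% of 7758 genes passed. Without the 5 highest cells its log2 ratio was -0.46. No member passed 0.5 in either direction there without these cells. In 4 classes 5 cells held 69.5 to 91.9% of the members' UMIs in at least 1 library. Counted over members with at least 200 UMIs, the minimum that the shares over all genes use too, 3 of 3 passed 0.5 in blood endothelial-like cells (12.7% of all genes measured there), 3 of 3 in Langerhans or dendritic-like cells (17.9%) and 2 of 3 in myeloid-like cells (21.7%). The counts without the 5 highest cells are over all 5 members with no minimum, and no share over all genes was computed for them. On that basis 1 of the 5 members passed in blood endothelial-like cells, COL5A2 with -0.74 (interval -1.78 to 0.23, 29 and 14 UMIs). In Langerhans or dendritic-like cells 1 passed, COL1A2 with -0.60 (-1.02 to -0.19). In myeloid-like cells COL1A1, COL1A2 and COL3A1 had log2 ratios of 1.41, 0.26 and 0.67, and without the 5 highest cells -0.45, -0.69 and -0.52. Of the 3 members with 200 UMIs in T or NK-like cells 0 passed, against 16.1% of the genes measured there. Without the 5 highest cells 2 of all 5 did, COL3A1 with -0.55 (-1.01 to -0.10) and COL5A2 with 0.88 (-0.48 to 2.41, 7 and 16 UMIs). In lymphatic endothelial-like and mast-like cells 0 of the 5 members had 200 UMIs, so that none is set against the shares over all genes there (21.7% and 22.5%). Without the 5 highest cells 3 of the 5 passed in lymphatic endothelial-like cells. These were COL1A2 with -0.56 (88 and 45 UMIs), COL5A1 with -0.77 (9 and 4 UMIs) and COL5A2 with 0.78 (43 and 56 UMIs). In mast-like cells 0 passed and 2 had no ratio.

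Of the genes that make, modify and turn over fibrillar collagen, 92 were listed, 85 are named in the files and 69 had at least 200 UMIs in fibroblast-like cells. Between the libraries 2 of the 69 were higher and 1 was lower past a log2 ratio of 0.5, 43 were above 0 and 26 below, and their median was 0.06. Over all 8876 genes measured in this class, 9.23% were higher and 5.72% lower past 0.5, and the median was 0.03. The share of all genes above 0 was not taken, so that counts above 0 are a description. The 2 higher ones of the 69 were COL11A1, a minor fibrillar chain (9.72 and 14.3 CPM, log2 ratio 0.55), and P4HB, a subunit of prolyl hydroxylase (224 and 361 CPM, 0.69). ADAMTS3, a procollagen peptidase, was lower (39.1 and 27.0 CPM, -0.53). P4HB and ADAMTS3 are outside the naming rule and were picked after their values were seen. The higher P4HB level was not particular to fibroblast-like cells. It was seen in mural-like (89.4 and 135 CPM), keratinocyte-like (120 and 161 CPM), T or NK-like (98.4 and 186 CPM) and both endothelial-like classes. Genes of hydroxylation, folding and export had a median of 0.18, with 17 of 21 above 0, among them SERPINH1, the collagen chaperone (795 and 965 CPM, 0.28), PPIB, a prolyl isomerase (520 and 606 CPM, 0.22), and CREB3L1, a transcription factor of secretory genes (301 and 332 CPM, 0.14). In the other role groups the medians ran from -0.09 for crosslinking enzymes to 0.31 for turnover genes.

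Of the 69 genes, 52 had a higher level in fibroblast-like than in mural-like cells in both libraries, 15 a lower one in both, and 2 differed in direction between the libraries. The 69 were picked by their UMIs in fibroblast-like cells, so that listed genes low in that class were not counted. DCN, LUM and DPT were also among the markers that named it. No share over all genes was taken for this count, which is a description. SPARC, a collagen-binding protein, had 9170 and 10643 CPM in fibroblast-like and 1272 and 1604 CPM in mural-like cells. DCN, the proteoglycan decorin, had 4711 and 5034 CPM in fibroblast-like cells, and LUM, lumican, had 2818 and 2421 CPM. PCOLCE, which enhances the trimming of the C-terminal propeptide, had 1258 and 1358 CPM in fibroblast-like and 89.4 and 124 CPM in mural-like cells. The crosslinking enzyme LOX was at 265 and 245 CPM against 9.25 and 8.37 CPM, while its relative LOXL2 was at 423 and 414 CPM against 238 and 258 CPM. MRC2, the receptor that takes up collagen, was at 360 and 365 CPM against 4.62 and 12.6 CPM. ITGB1, the integrin chain shared by the collagen-binding integrins, was at 136 and 157 CPM in fibroblast-like and at 361 and 338 CPM in mural-like cells, and YBX1, a DNA- and RNA-binding protein, at 402 and 562 CPM against 590 and 606 CPM. COL27A1, another fibrillar chain, was also higher in mural-like cells, with 169 and 120 CPM against 68.8 and 58.4 CPM.

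The collagen-rich clusters 1 and 4 were set against clusters 0, 5, 7 and 18 in each library apart. In this comparison the members' own UMIs were left out of the totals, so that its CPM are higher than those given above. COL1A1, for one, was at 90210.5 and 122821 CPM in clusters 1 and 4 on this scale. All log2 ratios are also higher than with full totals, because clusters 1 and 4 hold more member UMIs. Since these clusters were picked by the members' own levels, the members' values are a description. COL1A1 differed by 2.07 and 2.30 on the log2 scale, COL1A2 by 2.04 and 2.19, COL3A1 by 1.53 and 1.55, COL5A1 by 0.72 and 0.98 and COL5A2 by 1.02 and 0.99. Over all 8876 genes, 11.8% were higher and 15% lower by at least 0.5 in both libraries. Of the fibril-binding genes 9 of 15 were higher and 0 lower, of the crosslinking enzymes 3 of 5 and 0, and of the processing genes 8 of 21 and 1. SPARC was higher by 1.74 and 1.88, LOX by 1.13 and 1.43, DCN by 0.998 and 1.10, SERPINH1 by 0.93 and 1.08 and PCOLCE by 0.72 and 0.76. Other named genes of these roles stayed below 0.5 in size, LUM with 0.38 and 0.33, LOXL2 with -0.36 and -0.14 and BMP1 with -0.27 and -0.12. Not every collagen gene was on the higher side. COL11A1 had log2 ratios of -1.43 and -2.15 and COL27A1 -0.58 and -0.89, and COL5A3, the remaining type V chain, had -0.33 and -0.50. These directions did not hold for each cluster. Among the members, COL5A1 was level in clusters 7 and 1 of the fresh library, as given above. With full totals and both libraries together, COL11A1 was at 189 CPM in cluster 18 and at 2.46 to 5.84 CPM in every other fibroblast-like cluster. COL27A1 was lower in cluster 5 (12.3 CPM) than in clusters 1 and 4 (53.9 and 30.7 CPM). COL5A3 was lower in cluster 18 (73.3 CPM) than in clusters 1 and 4 (159 and 135 CPM). The collagen receptors were split, MRC2 being higher by 0.98 and 1.31 and DDR2, a receptor kinase that binds fibrillar collagen, having 96.9 and 68.1 CPM in the collagen-rich and 364 and 264 CPM in the other clusters, a log2 ratio of -1.91 and -1.955. None of the 3 measured turnover genes, MMP2, MMP14 and FAP, passed 0.5 in both libraries.

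**Figure D5:**
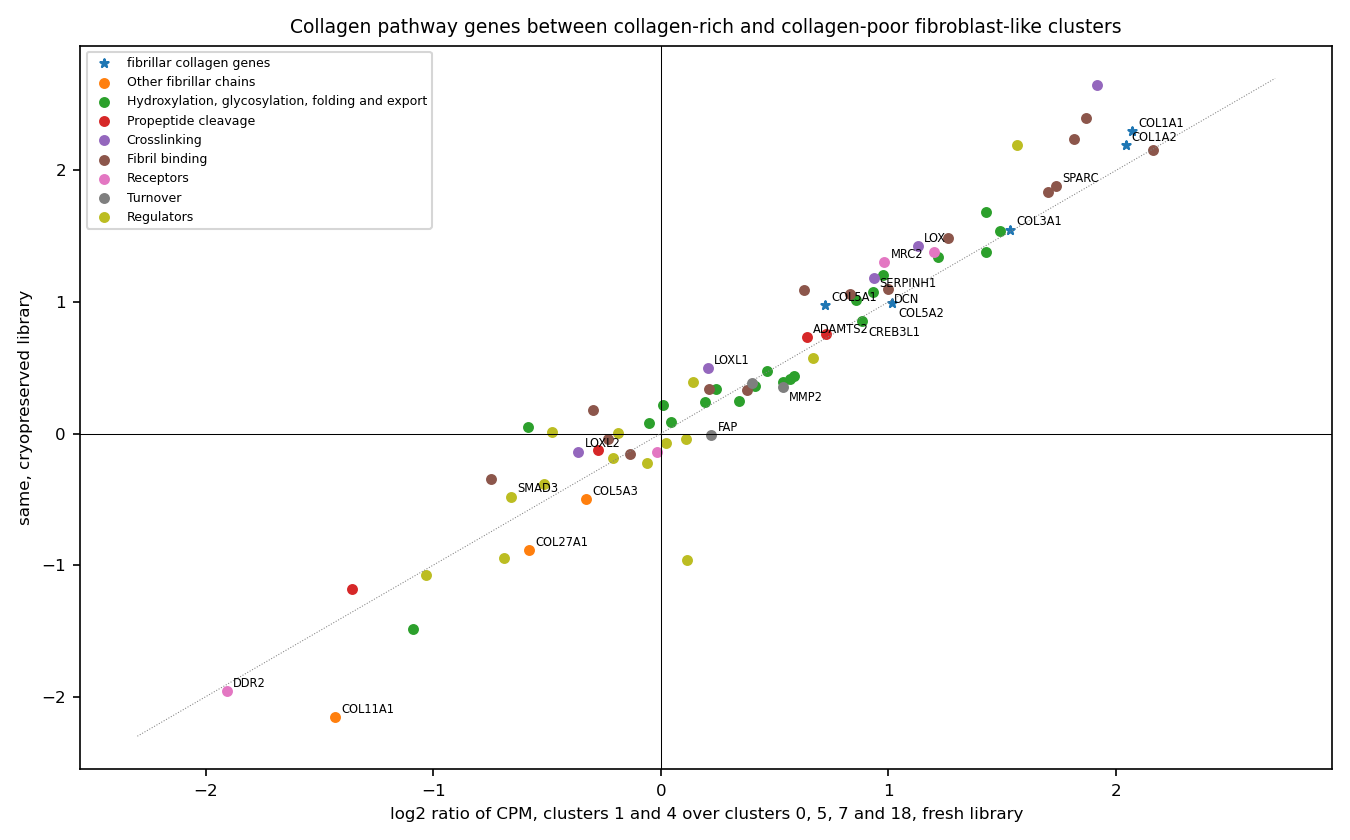
Log2 ratio of CPM of collagen-rich clusters 1 and 4 over clusters 0, 5, 7 and 18, fresh library on the x axis and cryopreserved library on the y axis, for the 5 fibrillar collagen genes (stars) and 69 pathway genes coloured by role; the dotted line marks equal ratios. The UMIs of the 5 collagen genes are left out of the totals here. The collagen genes lie between 0.72 and 2.30, most fibril-binding genes lie with them, and DDR2 and COL11A1 lie at the opposite end. The place of COL11A1 rests on its level in cluster 18.

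The genes most like each member were taken over all 24 clusters by Pearson's r of log2(CPM + 1), averaged over both libraries, among 7584 genes with at least 1000 UMIs. COL1A1 and COL1A2 were each other's closest (0.995). Apart from members, COL1A1 was closest to COL6A3 (0.958), a chain of the beaded type VI collagen, and to LUM (0.949), LOX (0.944), ENSSSCG00000016343 (0.940) and C1QTNF6 (0.938). The list of COL1A2 was COL6A3 (0.956), LOX (0.949), LUM (0.947), PCOLCE (0.945) and C1QTNF6 (0.945). COL3A1 had ENSSSCG00000038540 (0.967), LRRC17 (0.961), LOX (0.959), ISLR (0.957) and C1QTNF6 (0.956) beside it. COL5A1 was nearest to COL5A2 (0.947), and outside the members to PCOLCE (0.944), ENSSSCG00000013318 (0.939), FKBP10 (0.931), PDGFRL (0.928) and PAQR9 (0.927). COL5A2, outside the members, was nearest to BMP1, the procollagen C-proteinase (0.945), C1QTNF2 (0.944), ENSSSCG00000013318 (0.941), FHL1 (0.925) and SERPINH1 (0.917). The clusters share 2 libraries and differ in number of cells, and these r are descriptions.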

How the data were processed

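Both libraries were made with 10x Genomics 3′ chemistry. Per the labels and methods, the authors ran Cell Ranger 4.0.0 with STAR 2.5.1b on Sscrofa11.1 with the Ensembl annotation and deposited raw counts of UMIs per gene and barcode, without normalization, and 0 columns of other samples were present. Cells with at most 4500 genes, 30000 UMIs and 10% mitochondrial UMIs (13 genes) were kept here, as in the study. The members and lists were chosen with earlier results of these data known. Libraries were integrated with Seurat 5.3.0 anchors in R 4.3.3 (2000 variable genes, 30 dimensions, Louvain resolution 0.8) with 117 collagen and pathway genes left out, giving 24 clusters. A class was named where at least 3 markers were detected in 10% of its cells and raised 2-fold. The basal and differentiated keratinocyte lists were merged after the first output had been seen, and clusters 21 and 22 stayed unnamed. Scrublet marked 3 fresh and 35 cryopreserved cells, too few in the fresh library for a working caller, so it was not used as a filter. UMIs summed per class and library were scaled with edgeR 4.0.16 TMM factors. Intervals are exact Poisson, binomial or conditional binomial at 95%, and Woolf's for a ratio of ratios. Named genes are the members, the 3 most abundant genes of each role, any measured pathway gene past a log2 ratio of 1, and the 5 genes most like each member, and others are marked in the text. The sequences before the starts of the other members are not reported here. Scripts were tested on simulated data. Alternatives covered scaling, minima, filters, clustering and doublets. Single-cell steps used scanpy 1.11.5.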

Additional observations from a re-analysis of the deposited data

Results flagged for a closer look

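Fibrillar collagen UMIs were found in barcodes that the comparisons leave out. These barcodes were not sorted into cell classes, so that their shares are set beside those of all filtered cells (5.47% fresh and 5.596% cryopreserved). Barcodes over the mitochondrial limit had 2.57% of their UMIs in the 5 genes in the fresh library (1004 barcodes, median barcode 0.232%) and 3.40% in the cryopreserved library (446 barcodes, median 0.148%). COL1A1 made up 58.9% and 59.4% of these UMIs, more than the 42.1% and 44.7% in fibroblast-like cells. Barcodes within the mitochondrial limit but over the maximum of genes or UMIs had 9.35% in the fresh library (600 barcodes, 192 of them over 10%) and 5.59% in the cryopreserved library (191 barcodes, 41 of them over 10%).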

How the results depend on the processing

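The fibroblast-like collagen share (11.2% fresh, 12.4% cryopreserved) was higher after cryopreservation under every setting run except all barcodes, where it was lower. In fresh and cryopreserved order it was 12.6% and 14.2% with the members left out of the totals, 11.12% and 12.5% without the mitochondrial limit, 14.5% and 12.8% with all barcodes, 11.12% and 12.4% at resolution 0.4, 11.5% and 12.8% at 1.2, and 11.8% and 12.6% with libraries merged without integration. It was 11.3% and 12.6% without the highest 6% of Scrublet scores, 10.7% and 12.01% without the 1% of cells with most collagen, and 10.9% and 12.2% without the 5 highest cells, and with collagen genes kept for clustering the cryopreserved value was 12.4%. The members' median log2 ratio in these cells (0.17) was 0.11 with total UMIs, 0.21 without the mitochondrial limit, -0.13 with all barcodes, 0.18 at either resolution, 0.093 with merged libraries, 0.20 without the highest Scrublet scores, 0.18 without the 1% and 0.18 without the 5 highest cells. In mural-like cells the median (0.60) was 0.34 with all barcodes, 0.35 without the highest Scrublet scores, 0.40 without the 1% and 0.39 without the 5 highest cells. The fibroblast over mural ratio of COL1A1 to COL1A2 ratios over both libraries (1.11) was 1.01, 1.23, 1.24 and 1.24 in the same order. Genes past a log2 ratio of 0.5 in fibroblast-like cells numbered 1327, 2237 with a minimum of 50 UMIs and 8756 with 1 UMI, where more genes of few UMIs are counted. Leaving out the 5 highest cells was added after seeing the data, and for these values the cause was not tested. Of values for single genes, classes and clusters, 278 moved by less than their counting interval and 212 by more. Of values for the main results, such as the collagen shares, the members' medians and the ratio of ratios, 35 moved by less and 38 by more. No paired analysis was possible because each condition has 1 library. Depth limits the low classes: in mast-like cells without the 5 highest cells, COL5A1 and COL5A2 had 0 UMIs in the cryopreserved library, and intervals and floors cover counting error only.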

Other observations

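The unnamed dividing cluster 21 (18 fresh and 18 cryopreserved cells) had 5.47% and 7.37% of its UMIs in the 5 genes, with 5 cells holding 65.3% and 69.3% of them. The unnamed cluster 22 had 0.0158% and 0.0715% over 4 and 21 cells. Cluster 23, a Langerhans or dendritic-like cluster of 9 and 14 cells, had 2.58% and 0.101%, and its 5 highest cells held 99.8% and 94.6% of these UMIs.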
